A study of Mus musculus with 4 samples.

Results

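Principal 1 is the population of principal cells that the study assigned to the initial segment of the mouse epididymis, the stretch of duct next to the testis. Its members were the 144 cells carrying 1 population name in the authors' table of cells, the only name there that holds exactly this number. The table numbers its principal populations in another order than the study's figures do, and all 15 could be matched between table and study by their cell numbers. The 144 cells were 144 of 8880 cells in the series, of 3956 principal cells and of 1433 cells from the caput, the head of the organ, and all came from the caput library. Membership was set by clustering on the same UMI counts described below, so differences between clusters are given as descriptions without a test.

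The study took tissue from FVB/NJ male mice aged 10 to 12 weeks that carried no transgene and received no treatment. Pieces of caput, corpus, cauda and vas deferens were pooled over 4 mice (8 pieces per region), freed of sperm as far as possible, dissociated with collagenase and trypsin, and profiled with droplet-based 3' single-cell RNA-seq (10x Chromium). Each region gave 1 library, so there is no replicate of the caput, mice cannot be separated within the pool, and region and library cannot be told apart. Intervals below are 95% intervals for the counting of UMIs or cells alone, and a UMI (unique molecular identifier) marks 1 captured mRNA molecule. Levels are UMIs per 1000000 UMIs of a population, written UPM, which count 3' ends and are not divided by transcript length.

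The initial segment is a tall secretory epithelium served by a dense capillary net, and it depends on factors that arrive in the luminal fluid from the testis, a route called lumicrine signaling. One such factor, NELL2, activates the receptor tyrosine kinase ROS1 on principal cells. In these cells the ERK pathway and the ETV transcription factors keep the epithelium differentiated and maintain genes for secreted proteins that modify sperm. Cystatins, lipocalins, beta-defensins and RNase A family members are typical products of this part of the duct.

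Principal 1 held 510136 UMIs. Its cells had 210 to 14841 UMIs with a median of 1613, and 69 to 3121 detected genes with a median of 548.5. The nearest caput populations were shallower per cell: principal 2 (353 cells, assigned by the study to the initial segment and the next segment) had a median of 924 UMIs, and principal 3 (151 cells, assigned to the middle of the caput) had a median of 565. Of the 43 barcodes that occurred in more than 1 library, 4 belonged to cells of principal 1, with 31 to 155 *Defb20* UMIs in the principal 1 cell and 0 in each of their partners. The study's removal of background RNA had taken 3.88% of the UMIs of principal 1, 5.70% of those of principal 2 and 11.6% of those of principal 3. Cells were also given a doublet score on simulated cell pairs, and the 16 highest of the 1433 caput cells were called. That number was fixed beforehand by an assumed doublet rate, so it does not measure how many doublets there were. Of the 16, 0 were in principal 1, 7 in principal 2 and 1 in principal 3. The median score was 0.535 in principal 1 and 0.474 over the caput library.

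A short list of secretory genes dominated these cells. *Defb20*, a beta-defensin, had the highest level with 95126 UPM (interval 94281 to 95976). The 25 highest genes together made up 45.5% of all UMIs in principal 1. The 25 highest genes of each other population made up 26.4% in principal 2, 46.2% in principal 3 and 62.6% in principal 4. Such concentration was therefore not particular to principal 1. *Gpx5*, a secreted glutathione peroxidase that shields sperm lipids from oxidation, followed with 71702 UPM. *Spag11b*, a defensin-like antimicrobial protein, reached 61182 UPM and *Defb47*, another beta-defensin, 52059 UPM. These 4 genes alone accounted for 28.0% of the UMIs.

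The next genes were mostly secreted proteins of small families. *Lcn8*, a lipocalin that carries small hydrophobic ligands, was at 21169 UPM and the cystatin *Cst11* at 20014 UPM. The cystatin-like gene *9230104L09Rik*, which RefSeq lists as Cstdc2, was at 13000 UPM. *Clpsl2*, a colipase-like gene, reached 11556 UPM, and *Lcn2*, a lipocalin that binds iron-carrying siderophores, 9194 UPM. Among the 25, *Crip1* (a LIM-domain protein, 11783 UPM), *Mt1* (a metallothionein, 5740 UPM), *Rpl41* (a ribosomal protein) and *Tmsb4x* (thymosin beta) encode proteins of the cell's interior.

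**Figure D1:**
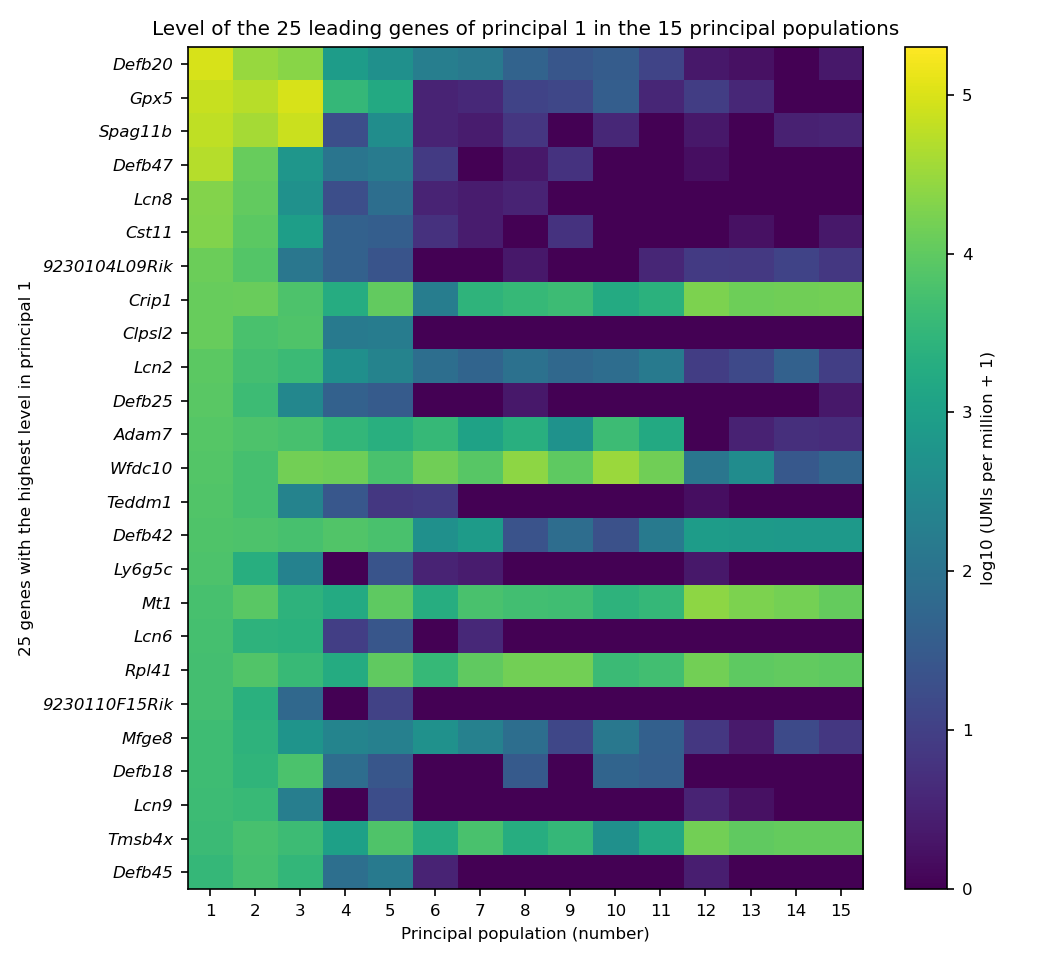
Levels of the 25 genes highest in principal 1, across all 15 principal populations ordered from initial segment to vas deferens. Each row is a gene, each column a population, and the color is log10 of UPM plus 1. The defensin, cystatin and lipocalin rows are bright in principal 1 and 2, part of them also in principal 3, and most darken from principal 4 on, while *Crip1*, *Mt1*, *Rpl41* and *Tmsb4x* stay bright along the duct and *Wfdc10* does so until principal 11.

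Across the 15 principal populations the leading genes fell into distinct spans. *Defb47* had its highest level here and was at 11819 UPM in principal 2, 607 in principal 3, 113 in principal 4 and 157 in principal 5, with at most 7.05 in the other 10. *Gpx5* and *Spag11b* were high in principal 1, 2 and 3 instead and were higher in principal 3 (97566 and 75759 UPM) than in principal 1. In the caput cells of principal 4 and 5 (19 and 67 cells), *Gpx5* was lower, at 17158 and 4456 UPM. *Rnase10*, an RNase A family member without the catalytic residues, stood at 1882 UPM in principal 1 and at 1693 in principal 2, dropped to 54.1 in principal 3 and did not exceed 10.3 UPM further along the duct.

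Among the 2577 genes with at least 20 UMIs in principal 1, 172 had their highest level of the 15 populations there, and for 140 of these principal 2 came second. Only 1 gene, *Defb47*, was at least 4-fold above each of the 14 others (0.0388% of the genes compared). At a 2-fold margin there were 13 such genes, among them *Defb20*, *Ly6g5c*, *Cst11*, *Cst8*, *Lcn6* and *Defb25*. The set that principal 1 and principal 2 held together was larger: 30 genes were at least 4-fold above all the other 13 populations in both. These 30 included *Lcn8*, *Lcn9*, *Cst8*, *Cst11*, *Cst12*, *Rnase10*, *Adam28*, *Ovch2*, *Mfge8* and *Mrpl37*.

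Sequences of the region before the annotated start are shown for 4 of these 30 genes, to place the motif counts that follow. Each is the 250 bases upstream of the start in RefSeq on GRCm38.p6, written 5′ to 3′ on the gene's strand, with capitals marking AGGAAG (the core of sites bound by ETS factors such as ETV5) on either strand. The order is *Defb47* (chr14:62997827-62998076, plus strand), *Ly6g5c* (chr17:35108044-35108293, plus), *Mfge8* (chr7:79149061-79149310, minus) and *Lcn8* (chr2:25652868-25653117, plus).
Defb47: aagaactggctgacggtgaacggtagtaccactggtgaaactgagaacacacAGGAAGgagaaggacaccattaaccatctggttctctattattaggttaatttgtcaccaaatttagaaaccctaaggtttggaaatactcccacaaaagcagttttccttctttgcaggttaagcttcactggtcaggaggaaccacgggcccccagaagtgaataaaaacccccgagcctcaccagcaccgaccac
Ly6g5c: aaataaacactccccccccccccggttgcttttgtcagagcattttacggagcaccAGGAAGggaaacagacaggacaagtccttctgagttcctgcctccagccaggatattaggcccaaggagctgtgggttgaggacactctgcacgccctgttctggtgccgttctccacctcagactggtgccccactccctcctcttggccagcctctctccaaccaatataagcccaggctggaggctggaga
Mfge8: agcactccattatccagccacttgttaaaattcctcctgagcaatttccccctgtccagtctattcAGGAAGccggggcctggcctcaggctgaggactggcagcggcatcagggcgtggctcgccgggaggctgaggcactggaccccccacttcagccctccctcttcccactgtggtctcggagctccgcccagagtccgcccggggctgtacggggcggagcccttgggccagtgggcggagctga
Lcn8: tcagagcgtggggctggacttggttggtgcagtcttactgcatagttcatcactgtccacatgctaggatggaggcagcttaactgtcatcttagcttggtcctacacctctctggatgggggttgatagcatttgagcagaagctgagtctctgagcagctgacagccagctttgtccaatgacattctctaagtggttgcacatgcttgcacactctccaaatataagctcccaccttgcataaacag
The *Defb47*, *Ly6g5c* and *Mfge8* windows each hold the motif, and the *Lcn8* window does not. The *Defb47* start lies within the annotated span of the gene (chr14:62992375-63001180), downstream of its first base. Of the 30 genes, 22 had a window in the table, some with more than 1 start (27 windows), and a gene counted if any window matched. AGGAAG or its reverse complement CTTCCT stood in 10 of the 22 (45.5%), in 29.5% of all 32851 promoter windows and, counted by gene in the same way, in 32.3% of 27025 genes. TATAAA or TTTATA stood in 4 of the 22 (18.2%), in 12.4% of all windows and in 14.3% of the genes. The 25 genes with the highest level in principal 1 lay on the other side of these shares, with AGGAAG or CTTCCT in 4 of the 17 that had a window (23.5%) and TATAAA or TTTATA in 0 of 17. These are matches of letters in a window and were not tested as binding sites.

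The leading families sit in gene clusters. At least 20 UMIs in principal 1 were reached by 5 of the 6 cystatins and 8 of the 11 lipocalins clustered on chromosome 2, but by a smaller part of the beta-defensins. Genes were taken in chromosome order from RefSeq on GRCm38.p6, and these maps were drawn after the values had been seen. Beta-defensins with *Spag11a* and *Spag11b* took 23.6% of all UMIs in principal 1, against 10.8% in principal 2 and 13.6% in principal 3. Of the 40 members in the table, 28 had a UMI in principal 1 but only 12 had 20 or more.

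In the chromosome 2 defensin cluster (chr2:152459055-152623053), 4 of 11 genes reached 20 UMIs. *Defb20* dominated it, *Defb25* stood at 8586 UPM, *Defb45* at 3454 UPM and *Defb29* at 133 UPM, whereas *Defb23*, *Defb26* and *Defb36* had 0 UMIs in principal 1, which allows at most 5.88 UPM (3 UMIs). The genes between *Defb20* and *Defb45* were more abundant further along the duct. *Defb22*, for example, had 1 UMI here but reached 15492 UPM in principal 6, and *Defb28* had 5 UMIs here and 22005 UPM in principal 10.

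On chromosome 14 (chr14:62977524-63048606), *Defb47* at 52059 UPM lies 2 genes from *Defb30* at 137 UPM. In principal 3 the order was the opposite, with 607 UPM for *Defb47* and 8564 UPM for *Defb30*. *Defb42*, the last gene of the cluster, differed little among the caput populations (6986, 6632 and 5749 UPM in principal 1, 2 and 3). A second run of 10 defensins on chromosome 8 (chr8:20892667-21948622) was nearly silent in principal 1, at 39.2 UPM in sum, while principal 2 had 712 and principal 3 had 6194 UPM.

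The lipocalins on chromosome 2 showed the same change between neighbors. *Lcn8* (chr2:25653118-25656217) had 21169 UPM in principal 1, 10832 in principal 2 and 481 in principal 3. *Lcn5* (chr2:25657932-25662230), the next gene, which encodes a retinoid carrier, had 572, 2202 and 34358 UPM. *Lcn6*, *Lcn10* and *Lcn9* followed *Lcn8* in being highest in principal 1 among the 15, with 5434, 1370 and 4344 UPM, and *Ptgds* (363 UPM) and *Lcn12* (229 UPM) followed *Lcn5* in being lower here than in principal 3.

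The cystatins, inhibitors of cysteine proteases by origin, mostly changed in the same direction. The 6 genes of the chromosome 2 cluster (chr2:148768618-148875512) summed to 39960 UPM in principal 1, 21539 in principal 2 and 2400 in principal 3. *Cst11*, *Cst12*, *Cst8* and *9230104L09Rik* each had their highest level here, at 20014, 2505, 2999 and 13000 UPM. For *Cst12* this rested on few cells: 10 of the 144 cells held 96.6% of its UMIs, and at equal depth (1000 UMIs a cell) its mean was 1.94 UMIs in principal 1 and 3.07 in principal 2. *Cst3*, which encodes the widely expressed cystatin C, was near level across the caput with 1437, 1136 and 1167 UPM. Reads matching several places were ignored when the study counted UMIs, so levels of near-identical family members may be too low.

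**Figure D2:**
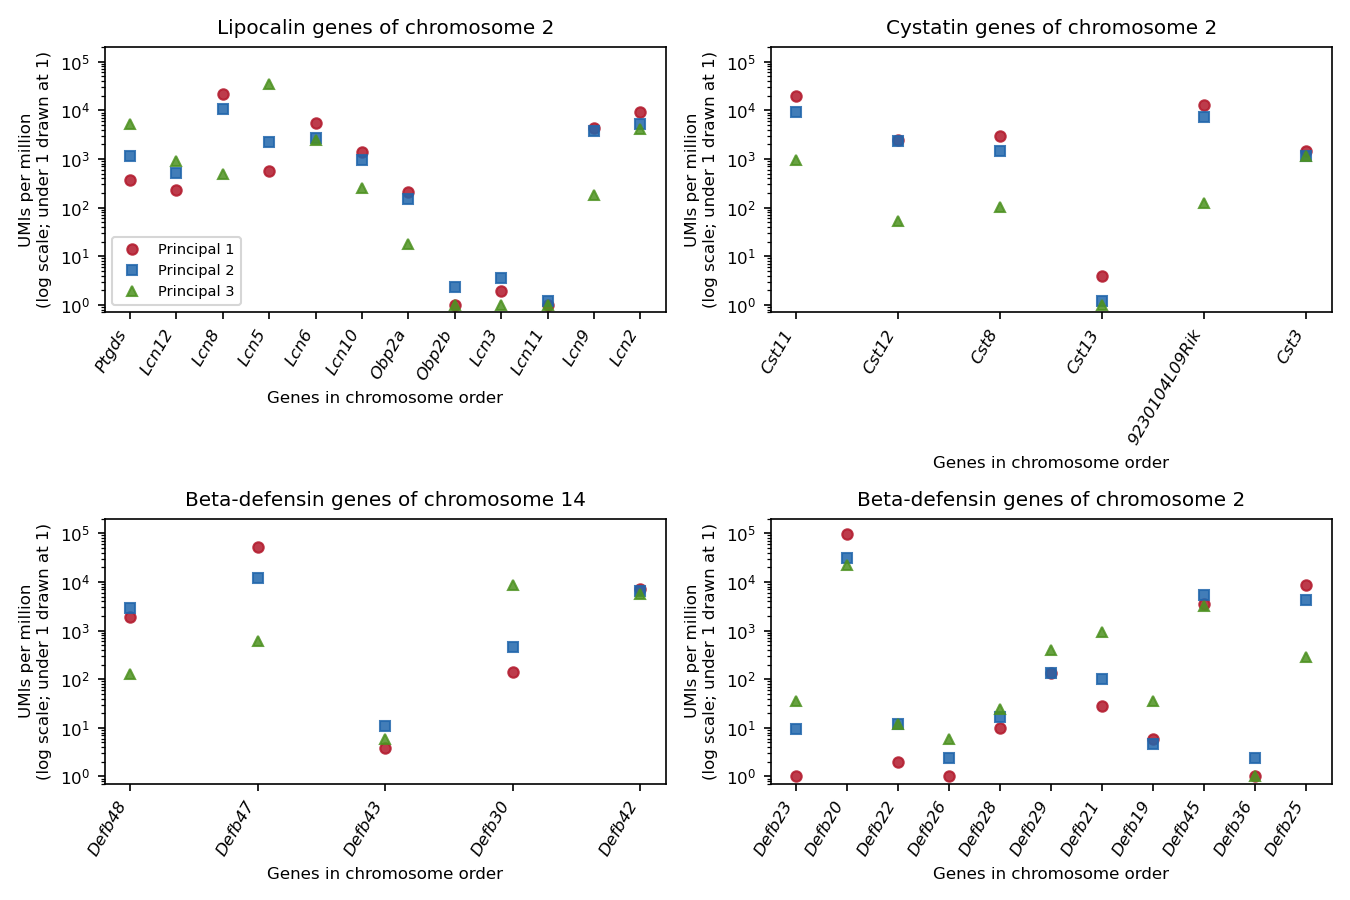
Levels of lipocalin, cystatin and beta-defensin genes in chromosome order (x axis) in UPM (y axis, log scale, values under 1 drawn at 1), for principal 1 (circles), principal 2 (squares) and principal 3 (triangles). Genes of 1 cluster cross: *Lcn8* is highest in principal 1 and *Lcn5*, the next gene, in principal 3. *Defb47* and *Defb30*, with *Defb43* between them, show the same opposition. The cystatins other than *Cst3* fall from principal 1 to 3, but *Cst13* has only 2, 1 and 0 UMIs. For *Cst12* the small step from principal 1 to 2 did not hold at equal depth.

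The markers fixed for this population were *Rnase10*, *Cst11* and *Lcn2*. The study identified its initial segment cells by these genes among others, so their presence in principal 1 followed from the naming and is no check of the label. The shares below describe how far each gene sets the population apart. To compare cells of unequal depth, each cell was thinned to 1000 UMIs, which left 82 of the 144 cells and put aside 62 shallower ones. *Rnase10* was found in 63 of the 82 cells (76.8%, interval 66.2 to 85.4), in 80 of 168 cells of principal 2 (47.6%) and in 0 of 45 cells of principal 3, which allows a share of up to 6.67% (3 cells of 45). *Cst11* was found in 98.8%, 83.3% and 17.8% of these cells, and *Lcn2* in 97.6%, 86.3% and 80.0%. Without thinning the shares in principal 1 were 57.6%, 93.8% and 86.8% in the order *Rnase10*, *Cst11*, *Lcn2*.

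As a measure of RNA from other cells, the caput basal cells, with a median of 6325 UMIs before thinning and 179 cells deep enough, had *Rnase10* in 1.68% and *Cst11* in 3.35%. The other caput groups thinned were basal cells of low UMI number, connective, endothelial, and clear and narrow cells. Among them *Cst11* reached 9.80% in the basal cells of low UMI number and 9.30% in clear and narrow cells. *Rnase10* was found in at most 1.96%. The remaining non-principal groups were not thinned, and their *Cst11* level ran from 0 to 1699 UPM, the latter from 12 UMIs in 4 cells. All of the shares in the thinned groups were below those of principal 1. *Lcn2* did not set the population apart in this way. It was found in 99.4% of the basal cells, and its level there was 6975 UPM, rising to 18489 UPM in the basal cells of low UMI number, above the 9194 UPM of principal 1. The 3 markers by which the study named these cells were thus present. *Rnase10* and *Cst11* mark principal 1 and 2 against the other caput groups that were thinned, and none of the 3 separates principal 1 from principal 2 cell by cell.

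The pair *Defb47* and *Defb20* separated these neighbors better. Their joint share of a cell's UMIs was 6.18 to 27.6% in principal 1 with a median of 14.6%, and 0 to 12.7% in principal 2 with a median of 4.41%. The ranges overlapped, but 0 cells of principal 2 lay above the median of principal 1 and 0 cells of principal 1 lay below the median of principal 2. *Defb20* was detected in 144 of the 144 cells. Both genes were picked after their values were seen, and both entered the clustering that drew the boundary.

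**Figure D3:**
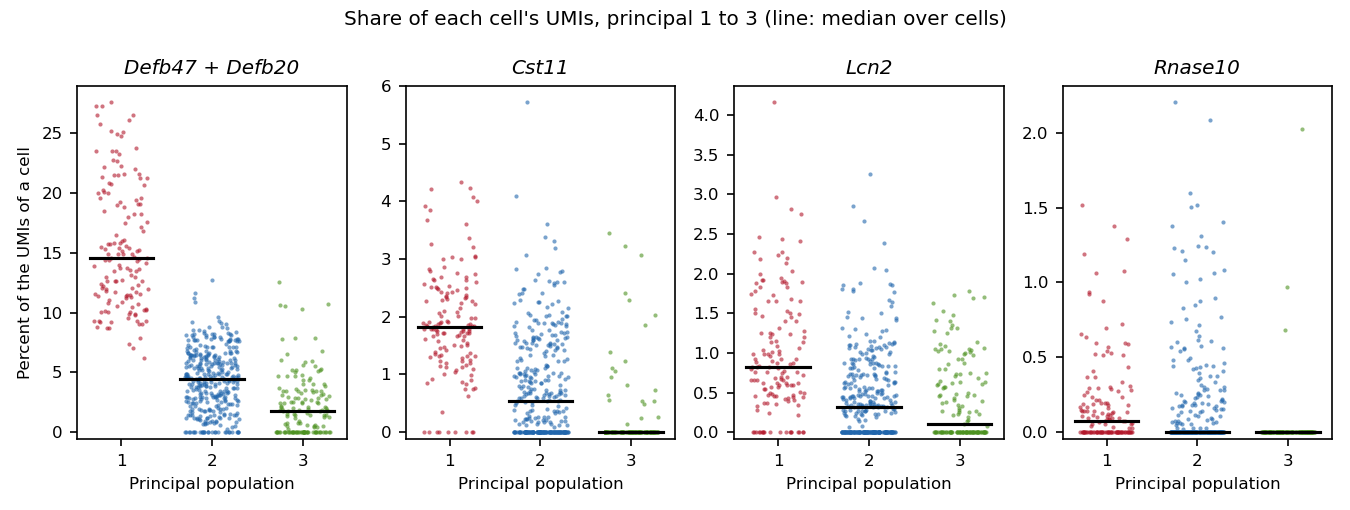
Share of each cell's UMIs (percent, y axis) taken by *Defb47* plus *Defb20*, *Cst11*, *Lcn2* and *Rnase10* in principal 1, 2 and 3. Each point is a cell and the bars mark medians; for the defensin pair the medians are 14.6% in principal 1 and 4.41% in principal 2, and the *Rnase10* points overlap widely between principal 1 and 2.

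Principal 2 was the population most like principal 1. UMIs were summed over the cells of each population and genes with at least 20 UMIs in either sum were compared (5117 genes). A difference of at least 2-fold was counted where the higher population had 20 UMIs, with counts under 3 set to 3. Only 18 genes were higher in principal 1 (0.352% of those compared) and 988 were lower (19.3%), and the median log2 ratio over all genes was -0.50. Part of this lopsided split followed the denominator. The 38 genes that exceed 1% of UMIs in any of the 15 principal populations took 39.6% of the UMIs in principal 1 and 23.5% in principal 2. Leaving them out of the denominators moved the median to -0.16 and the counts to 56 higher and 509 lower. With a minimum of 50 UPM in place of 20 UMIs the counts were 15 higher and 410 lower. The counting interval of the ratio lay above 1 for all 18 higher genes and below 1 for 833 of the 988 lower genes. Of the 988, 62 had under 3 UMIs in principal 1.

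The genes higher in principal 1 were again mainly secretory. *Defb47* was 4.40-fold higher than in principal 2 (interval 4.30 to 4.51), *Ly6g5c*, a member of the Ly6 family, 3.26-fold (3.08 to 3.45), and *Defb20* 3.08-fold (3.03 to 3.13). *Cst11* was 2.17-fold, *Cst8* 2.10-fold, *Lcn6* 2.06-fold and *Defb25* 2.01-fold higher, and *9230110F15Rik*, a PATE family gene, 2.26-fold. The low-abundance genes *Tmem252*, with 72 UMIs and a ratio of 3.31 (2.19 to 5.08), and *Rbfox3*, with 39 UMIs and a ratio of 3.59 (2.00 to 6.66), also passed, but with equal weight per cell the log2 ratio of *Tmem252* fell from 1.73 to 0.62, under the threshold. *Lcn8* at 1.95-fold, *Lcn2* at 1.78-fold and *Mfge8* at 1.69-fold did not reach the threshold. *Rnase10* was nearly level, at 1.11-fold (1.02 to 1.21), as was *Adam28* at 0.966-fold (0.878 to 1.06).

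The genes lower in principal 1 included products of the next segments and genes of other cell types. *Defb15*, a beta-defensin, had 6 UMIs here and was 38.9-fold lower (17.7 to 107) than in principal 2, and *Defb12*, with 0 UMIs here, was at least 15.5-fold lower. *Lcn5* was 3.85-fold and *Clu*, which encodes the secreted chaperone clusterin, 4.97-fold lower. *Apoe*, a lipid carrier, was 36.1-fold lower (26.5 to 50.4) with 80.4 against 2900 UPM. Few cells of principal 2 carried it: 21.2% of them had a UMI of *Apoe*, 10 of the 353 held 53.6% of the UMIs, and the median cell had 0. *Hspb1* was 34.4-fold and *Defb1* 19.9-fold lower. With equal weight per cell the log2 ratio of *Apoe* went from -5.17 to -2.78 and that of *Hspb1* from -5.11 to -1.57.

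Basal cell keratins moved with the *Apoe* group. *Krt15* had 5.88 UPM here and 105 in principal 2, *Krt14* had 3.92 and 58.0, and *Krt5* had 0 and 35.5. The caput basal cells themselves had 26632 UPM of *Apoe*. Without the called doublets, 7 of which were in principal 2, the log2 ratio of *Apoe* was -4.78 and that of *Krt15* -3.93, against -4.16 with them. The part of basal RNA in the lower counts of principal 1 was not tested. In principal 1 the listed markers *Ptprc* and *Tyrobp* of immune cells, *Col1a1*, *Col3a1* and *Lum* of stroma, *Acta2* and *Myh11* of muscle, *Pecam1* and *Cdh5* of endothelium and *Atp6v1b1* and *Slc4a9* of clear cells had 0 UMIs. Other members of these lists were present at low numbers. The immune list had UMIs in 3 of 5 genes (90 UMIs, 176 UPM in principal 1, 187 in principal 2 and 229 in principal 3), of which 88 were *Cd52*, a surface antigen that epididymal epithelium is also known to make. The clear cell list had 14 UMIs in 3 of 5 genes, the endothelial list 14 in 2 of 4, the stromal list 4 in 2 of 5, the muscle list 3 in 2 of 4 and the basal list 7 in 3 of 4.

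Principal 3 differed far more. Of 2625 genes compared, 606 were at least 2-fold higher in principal 1 (23.1%) and 223 were lower (8.5%), with a median log2 ratio of 0.26. This split followed the minimum: principal 3 held fewer UMIs, and with a minimum of 50 UPM in place of 20 UMIs it turned to 467 higher and 544 lower, with a median of -0.03. Of the 606, 128 had under 3 UMIs in principal 3, and the counting interval of the ratio lay above 1 for 375.

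The large ratios over principal 3 repeated the families above. *9230104L09Rik* was 103-fold higher (67.3 to 166), *Defb47* 85.7-fold (70.5 to 105), *Cst12* 46.3-fold and *Lcn8* 44.0-fold (35.3 to 55.5). *Rnase10* was 34.8-fold higher (18.2 to 76.3). With equal weight per cell these differences were smaller, and the log2 ratio went from 6.42 to 5.37 for *Defb47*, from 5.46 to 3.38 for *Lcn8* and from 5.12 to 3.01 for *Rnase10*. *Enpp2*, which encodes autotaxin, an enzyme making lysophosphatidic acid, was 34.1-fold higher. *Actg2*, an actin otherwise typical of smooth muscle, had 433 UMIs here and 0 in principal 3 and was at least 47.0-fold higher. *Adam28*, a metalloprotease of the ADAM family, was 27.9-fold higher and *Mfge8*, a secreted protein that binds sperm and membranes, 8.42-fold.

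*Mrpl37* was 32.5-fold higher and departed from its own complex. It encodes a subunit of the mitochondrial ribosome, and its level was 2148 UPM in principal 1, 1571 in principal 2 and 66.2 in principal 3. The other 73 *Mrpl* and *Mrps* genes had medians of 37.2, 42.6 and 36.1 UPM, and the highest of them reached 325 UPM in principal 1. Whether all reads counted for *Mrpl37* arise from that gene was not tested.

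Lower than in principal 3 were the products of the middle caput. *Defb15* was 483-fold lower (221 to 1320), *Spink2*, a Kazal-type protease inhibitor, 269-fold, *Spink11* 126-fold and *Rnase9*, an RNase A family member, 111-fold. *Clu* was 55.2-fold lower (49.1 to 62.1), and for *Lcn5* the interval of the ratio ran from 53.4-fold to 67.7-fold lower. *Serpina1f*, with 0 UMIs in principal 1, was at least 78.7-fold lower.

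Against all 3812 other principal cells, 307 of 10902 genes were at least 2-fold higher (2.82%) and 2209 lower (20.3%), with a median log2 ratio of -0.29. Here too the denominator mattered: without the genes over 1% of UMIs the counts were 398 and 1408 and the median 0.01, and with the authors' size factors 427 and 1289 and 0.07. Of the 2209 lower genes, 604 had under 3 UMIs in principal 1, and the counting interval of the ratio lay below 1 for 1694. For the 307 higher genes it lay above 1 in all 307. *Defb47* was 46.3-fold and *Ly6g5c* 33.9-fold higher, and *Defb20* 28.4-fold. The genes lower by most came from the cauda and vas deferens: *Gpx3*, a plasma-type glutathione peroxidase, was 169-fold and *Defb28* 599-fold lower, and *Crisp1*, a sperm coat protein, had 2 UMIs in principal 1 and 42694 UPM in the others. The study's main text names *Crisp1* among the genes of the last cauda segment. In a figure legend it also describes *Crisp1* as expressed in most cells of its proximal principal clusters, principal 1 included. The 2 UMIs counted here do not show the latter. In this comparison region and library change with the population, and they cannot be told apart.

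**Figure D4:**
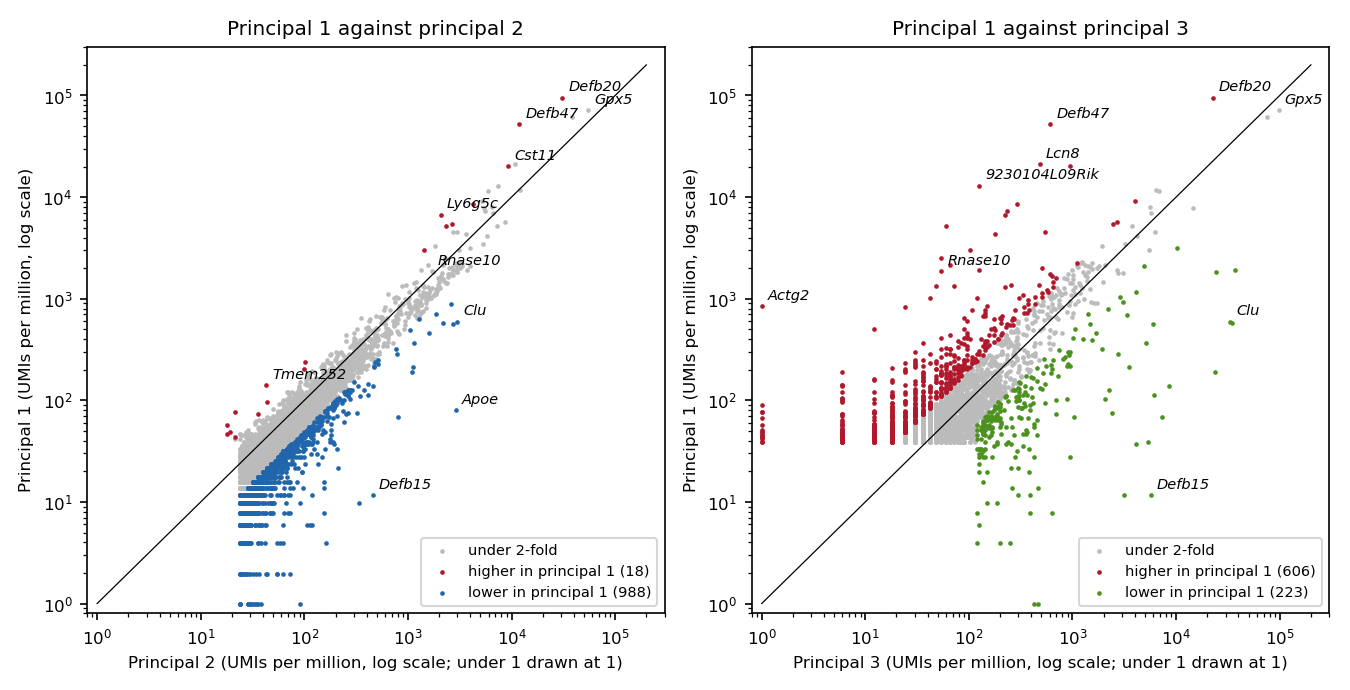
Level of each compared gene in principal 1 (y axis) against principal 2 and principal 3 (x axes), in UPM on log scales with values under 1 drawn at 1, a line at equal levels, and colored points for genes at least 2-fold higher or lower. Few points are colored as higher against principal 2 (18 genes) and many against principal 3 (606 genes); *Defb47* stands off the diagonal in both panels, while *Rnase10* lies near it against principal 2.

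The 3 lumicrine genes with enough UMIs differed less than 2-fold between principal 1 and 2. *Ros1*, the receptor, had 66.6 UPM in principal 1, 60.4 in principal 2 and 18.0 in principal 3. *Ovch2*, which encodes a secreted protease that this signal switches on, had 365, 469 and 36.1 UPM. Of these 3 genes, 0 differed 2-fold from principal 2, where 0.352% of all genes were higher and 19.3% lower, and 3 were higher than in principal 3, where 23.1% of all genes were. The whole list had 17 UMIs in principal 3, and *Ros1* had 34 UMIs in principal 1 and 3 in principal 3. The 3 genes thus entered that comparison only through principal 1 and could not be called lower, so 3 of 3 carries no weight beside the share of all genes. *Nell2* and *Nell1*, the ligand genes, had 0 UMIs in principal 1.

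ERK target genes were compared with principal 2 and principal 3 by the same rule. Of 10 target and feedback genes compared with principal 2, 0 were higher and 1 was lower, a smaller share than the 19.3% of all genes, with a median log2 ratio of -0.12 against -0.50 for all genes. Of 7 compared with principal 3, 5 were higher (23.1% of all genes were) and 0 lower, with a median of 1.75 against 0.26. The minimum of 20 UMIs stands for 120 UPM in principal 3 and for 39.2 UPM in principal 1. A gene under 120 UPM in principal 3 thus entered only through principal 1 and could not be called lower. This holds for *Etv5*, *Spry1* and *Dusp5*, so the 5 of 7 carries no weight beside the share of all genes. *Etv5* had 108, 84.1 and 18.0 UPM in principal 1, 2 and 3, from 55, 71 and 3 UMIs. *Spry1* (68.6, 66.3 and 24.1 UPM) and *Dusp5* (169, 172 and 36.1 UPM), both feedback inhibitors, behaved alike. *Dusp6*, a phosphatase acting on ERK, was the gene lower than in principal 2, with 17 UMIs and 33.3 UPM against 78.2. The kinases and adaptors of the cascade itself gave 0 higher and 3 lower of 10 against principal 2, where 19.3% of all genes were lower. Against principal 3, where 23.1% of all genes were higher, they gave 1 higher and 0 lower of 6.

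*Srd5a2*, which makes dihydrotestosterone, had 151 UPM in principal 1, 122 in principal 2 and 138 in principal 3.

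Lists of housekeeping, protease inhibitor and junction genes were read against the background of all genes, which was 0.352% higher and 19.3% lower against principal 2, and 23.1% higher and 8.5% lower against principal 3. Ribosomal proteins took 8.72% of UMIs in principal 1, 12.6% in principal 2 and 5.75% in principal 3. Of the 76 compared with principal 2, 0 were higher and 2 lower, with a median log2 ratio of -0.57 against -0.50 for all genes, and of the 75 compared with principal 3, 17 were higher and 0 lower. Of the 33 genes of protein import and folding in the endoplasmic reticulum, 0 differed from principal 2 by 2-fold, and 4 were higher and 7 lower than in principal 3. Lysosomal genes gave 0 higher and 3 lower of 22 against principal 2, no larger a share than that of all genes, and 0 higher and 9 lower of 17 against principal 3. *Npc2*, a cholesterol-binding protein of this list, had 688, 1174 and 3356 UPM in principal 1, 2 and 3. Kazal and Kunitz protease inhibitors gave 0 higher and 5 lower of 10 against principal 2, and 2 higher and 6 lower of 9 against principal 3. The junction genes of the blood-epididymis barrier gave 0 calls of 16 against principal 2, and 2 higher and 5 lower of 12 against principal 3. *Cldn10*, a claudin of this list, had 194, 117 and 24.1 UPM.

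The 144 cells were not uniform. Among the 458 genes with 100 or more UMIs, the variance over the mean in the 82 thinned cells had a median of 1.37, where counting alone gives about 1, and exceeded 2 for 68 genes. *D730048I06Rik*, a PATE family gene that RefSeq calls Pate6, was the most uneven at 41.8, with 70 of the 82 cells at 0 and 1 cell at 60 UMIs of 1000. *Lcn8* came next at 26.8, with 27 cells at 0, a median of 9.5 and a highest value of 90. *Cst12* was found in 13 cells, with up to 37 UMIs. *Defb20* was present in every one of the 82 cells, at 46 to 190 UMIs of 1000.

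*Lcn8* marked a gradient that a group of initial segment genes shared. The genes given here were chosen after their values were seen, the correlations are Spearman's rho over the 82 thinned cells of 1 library and carry no test, and because every cell sums to 1000 UMIs, abundant genes push the others down. *Cst8* rose with *Lcn8* at 0.79, *Adam28* at 0.73, *Mrpl37* at 0.70, *Defb48* at 0.62, and *Lcn9*, *Actg2* and *Defb25* at 0.60 each. Going the other way, *Slc38a5*, a transporter of neutral amino acids, was at -0.70, *Adam7*, a membrane protein passed to sperm, at -0.60 and *Gpx5* at -0.56. *Cst8* was found in 46 of the 55 cells with *Lcn8* and in 4 of the 27 without, *Adam28* in 32 and in 0, and *Slc38a5* in 21 and in 25. *D730048I06Rik* was found in 1 of the 55 and in 11 of the 27.

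The leading defensins did not follow this gradient, although other genes higher here than in principal 2 did. *Cst11* had a rho of 0.54 with *Lcn8*, *9230110F15Rik* one of 0.41 and *Ly6g5c* one of 0.40, beside *Cst8* and *Defb25* above, whereas *Lcn6* had -0.07. *Defb20* had a rho of -0.12 with *Lcn8* and *Defb47* one of -0.14, and *Defb47* was found in 54 of the 55 cells with *Lcn8* and in 25 of the 27 without. *Rnase10*, which was nearly level between principal 1 and 2, had a rho of 0.10, in 47 of the 55 and in 16 of the 27 cells. In the 168 thinned cells of principal 2, *Cst8* (0.77), *Adam28* (0.81) and *Lcn9* (0.88) followed *Lcn8* as well, but there *Rnase10* did too, at 0.71, in 72 of the 91 cells with *Lcn8* and in 8 of the 77 without. The difference of rho between the populations was not tested.

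Depth moved with this gradient. Before thinning, the cells of principal 1 with *Lcn8* had a median of 5562 UMIs and those without 3357, the rho of *Lcn8* with depth was 0.26 and that of *Slc38a5* -0.47, and the part of depth in the gradient was not tested. Cells with under 1000 UMIs, 62 cells and 29438 UMIs in all, had 9444 UPM of *Lcn8* and 104253 UPM of *Gpx5*, against 21887 and 69709 UPM in the 82 deeper cells. *Defb47* (54046 and 51937 UPM) and *Cst11* (20246 and 20000 UPM) were close to equal between shallow and deep cells. Ribosomal proteins took 4.04% of UMIs in the shallow cells and 9.01% in the deep ones.

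**Figure D5:**
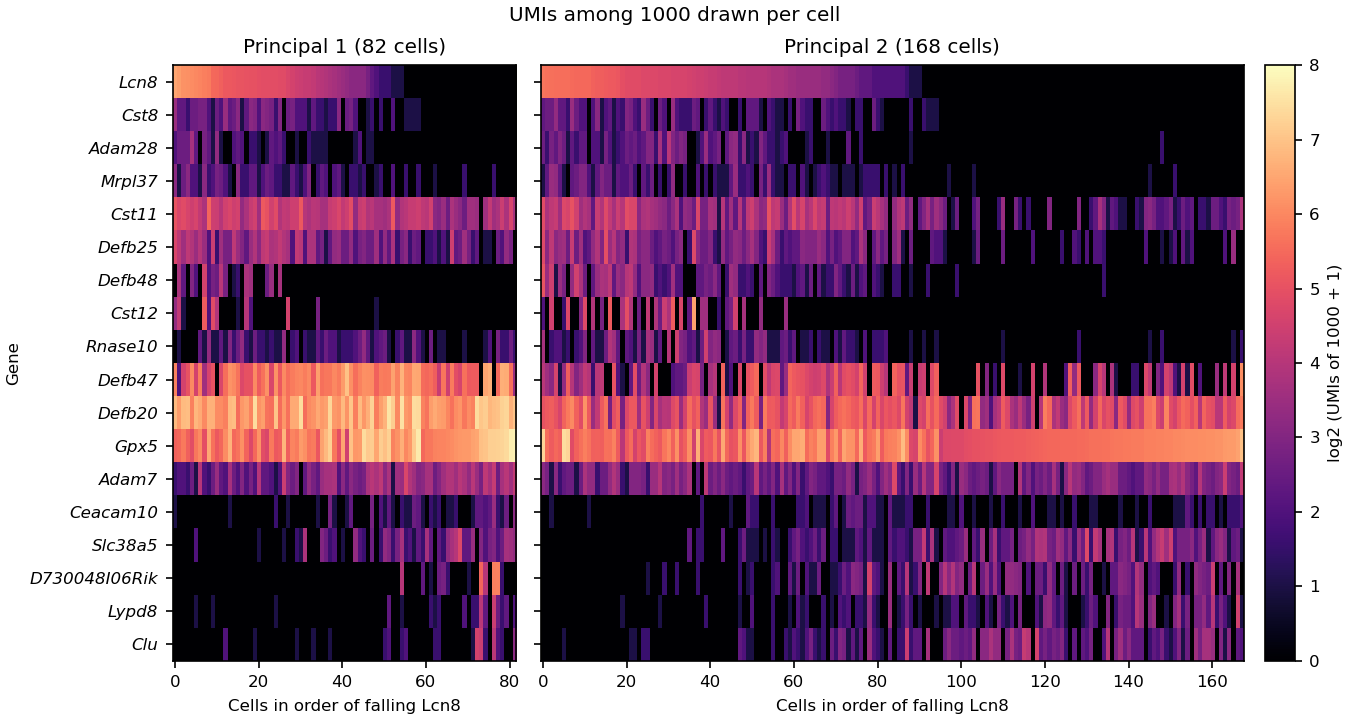
Thinned cells of principal 1 (82 cells) and principal 2 (168 cells) in order of falling *Lcn8*, with ties ordered by *Cst8* and then by rising *Gpx5*. Rows are genes and the color is log2 of UMIs of 1000 plus 1; *Cst8*, *Adam28* and *Mrpl37* fade with *Lcn8* in both populations, *Slc38a5* gains, *Defb20* and, but for 3 cells, *Defb47* are present through all of principal 1, and *Rnase10* is concentrated at the *Lcn8*-rich end in principal 2 (72 of 91 cells with *Lcn8*, 8 of 77 without).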

How the data were processed

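The authors sequenced 1 droplet library per region, aligned reads to mm10 with HISAT2 2.0.4 (both from the submitters' processing notes) and counted UMIs per RefSeq gene with reads matching several places ignored. Barcodes within the UMI limits of the study were kept and background RNA was subtracted. The deposited count table holds whole UMI counts for 16892 genes and 8880 cells. The deposited size factors and t-SNE coordinates, scores of the authors' own making, come from scran and from clustering within broad cell classes, and population names come from that clustering.

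Here UMIs were summed over the cells of a population and scaled to 1000000, with exact Poisson intervals for levels, exact conditional intervals for ratios and Clopper-Pearson intervals for shares, all at 95% and for counting error only; a share of 0 is given with the limit of 3 counts. With 1 library per region and clusters built from the same counts, no test was run. Genes with at least 20 UMIs in either population were compared, counts under 3 were set to 3, and a ratio of 2 was counted. Cells were thinned to 1000 UMIs with seed 1. Doublets were scored against simulated pairs with 57 neighbors, the number called was set by an assumed rate, and called cells were kept in the main values. Scripts were tested on simulated data. Tables were handled with pandas 2.3.3 and numpy 2.4.6 under Python 3.11.15, intervals came from scipy 1.17.1, neighbors from scikit-learn 1.9.0, and plots from matplotlib 3.10.9.

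The members, gene lists and rules were chosen with earlier results of these data known. The text names the 25 genes with the highest level, the 15 largest ratios per comparison and direction, the genes highest among 15 populations, the genes the study names for these segments and, of each list, members with the largest ratios; other genes are said to be chosen after their values were seen. *9230104L09Rik* was moved from the defensin to the cystatin list because RefSeq names it a cystatin. Alternatives were the fold and UMI thresholds, deeper cells, equal weight per cell, other denominators, the authors' size factors, thinning depths, and leaving out doublets, other libraries or shared barcodes. *Nicol1*, *Dpep3*, *Spam1*, *Etd*, *Ccl20*, *Foxa2* and *Cfap126* were not analysed here. Some items are not reported here. Gene positions, promoter windows and names are from RefSeq on GRCm38.p6, the assembly that mm10 represents.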

Additional observations from a re-analysis of the deposited data

How the results depend on the processing

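No paired analysis was possible because each region gave 1 library and no result comes from a test between samples. Reported counts are 18 higher and 988 lower against principal 2, 606 and 223 against principal 3, 307 and 2209 against all other principal cells, and 1 gene (*Defb47*) 4-fold above the 14 other populations. The directions of single-gene ratios and the order of higher and lower counts held except for the principal 3 counts at a minimum of 50 UPM, and the median over all genes changed sign there and, against all others, under 2 denominators, as given below. A 4-fold threshold gave 1 and 195, 130 and 89, and 156 and 538, and 0 genes at an 8-fold margin over all 14. A 1.5-fold threshold gave 81 and 2235 against principal 2, 958 higher against principal 3, 3951 lower against all others, and 13 genes at a 2-fold margin over all 14. With a minimum of 10 UMIs there were 47 and 1848 against principal 2, 479 lower against principal 3 and 471 higher against all others. With 50 UMIs there were 11 and 340, 302 and 110, and 170 higher against all others. With a minimum of 50 UPM in place of UMIs, 410 were lower than in principal 2, 905 lower than in all others, and 467 were higher and 544 lower than in principal 3, so that 46.2% of the calls were higher in place of 73.1% and the median log2 ratio went from 0.26 to -0.03. Cells with at least 1000 UMIs added *Tmem252* to the genes 4-fold above all 14 (2 genes). Equal weight per cell gave 68 and 1818 against principal 2 and 2 genes (*Cst6* added). Leaving genes over 1% of UMIs out of the denominator gave 56 and 509 against principal 2, 398 and 1408 against all others, and 2 genes (*Ly6g5c* added). The authors' size factors gave 48 and 529, 427 and 1289, and 3 genes (*Ly6g5c* and *Tmem252* added). Under these last denominators the median log2 ratio against principal 2 moved by 0.34 and 0.31, that against all others moved from -0.29 to 0.01 and 0.07, and the share of calls that were higher than in all others went from 12.2% to 22.0% and 24.9%. With the caput library alone for the other principal cells, 50 were higher and 1170 lower. The share of principal 1 cells with *Rnase10* was 76.8% at 1000 UMIs, 49.0% at 500, 90.9% at 2000, 57.6% without thinning and 51.2% when 2 UMIs were asked for, so that it measures depth as well as the gene. *Lcn2* was found in 100% at 2000 UMIs and in 86.8% without thinning, and *Cst11* in 100% at 2000 UMIs. Leaving out the cells whose barcode occurs in another library, chosen after seeing the data, gave 19 and 979, 602 and 224, 300 and 2209, and 1 gene. Ratios of single genes were each scored under several of these settings. Over all genes and settings, 341 scores stayed within the counting interval and 109 left it, 49 of these with equal weight per cell. For levels of single genes, 101 scores stayed within it and 64 left it. Genes with few UMIs are limited by depth: 20 UMIs in principal 1 stand for 39.2 UPM.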
